A study of Mus musculus with 2 samples.

Results

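The platelet-derived growth factor (PDGF) genes described here are the 4 ligands Pdgfa, Pdgfb, Pdgfc and Pdgfd, the 2 receptors Pdgfra and Pdgfrb, and the receptor-like gene Pdgfrl. They were taken by name, and all 7 were found among the 20140 genes of the tables. The comparison asks which cells of the salivary gland carry the RNA of each ligand, which carry the receptors, and how both stand after the gland's ducts are blocked. Both libraries came from female C57BL6/J mice aged 14 weeks. In the ligated library a metal clip had closed the main ducts of submandibular and sublingual glands for 14 days. In the mock library the same ducts were exposed without a clip and the mice healed for 14 days. Each condition was 1 droplet library made from 2 glands, and whether these came from 1 animal is not stated, so no difference below carries a test or a replicate error. Epithelial and red blood cells had been depleted with beads against EpCAM and Ter119 and dead cells removed in both libraries. What was measured is therefore a stroma-enriched remainder. Clusters led by ductal, acinar and erythroid genes were still present, and the acinar and erythroid ones also held markers of other cell types, as given below.

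PDGF ligands are secreted dimers that bind receptor tyrosine kinases and drive the growth and movement of mesenchymal cells. PDGF-A acts through the alpha receptor (Pdgfra), and PDGF-B binds both receptors and, when made by endothelium, recruits the mural cells (pericytes and smooth muscle) that carry the beta receptor (Pdgfrb). PDGF-C and PDGF-D are secreted in a latent form and are activated by proteases, PDGF-C towards the alpha and PDGF-D mainly towards the beta receptor. In glands and other organs the alpha receptor is widely used to mark fibroblasts. In the GENCODE M21 annotation of build GRCm38 the ligand genes lie at chr5:138976014-138997370 (Pdgfa, minus strand), chr15:79995874-80014977 (Pdgfb, minus), chr3:81036416-81214040 (Pdgfc, plus) and chr9:6168584-6378850 (Pdgfd, plus). The receptor genes lie at chr5:75152292-75198215 (Pdgfra), chr18:61045150-61085061 (Pdgfrb) and chr8:40926212-40990785 (Pdgfrl), all on the plus strand.

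The values were mean UMIs (unique molecular identifiers, each marking 1 captured RNA molecule) of a gene per 10000 UMIs of a cell, averaged over a cluster. Such a mean does not tell how many cells of the cluster held the RNA. The means allowed 4199 mock and 11406 ligated cells to be counted, and UMI totals could be recovered for 607 mock cells (median 6564) and 2172 ligated cells (median 6722), with deep cells over-represented. Endothelial-like cluster 0 held 2363 mock and 2948 ligated cells, natural killer-like cluster 1 held 679 and 3353, T cell-like cluster 2 held 155 and 1393, and fibroblast-like cluster 3 held 188 and 1149. The second endothelial-like cluster 4 held 226 and 531, macrophage-like cluster 5 held 77 and 680, mural-like cluster 6 held 161 and 420, and ductal-like cluster 7 held 201 and 278. Erythroid-like cluster 10 held 85 and 60. Schwann-like cluster 9 held only 17 mock cells beside 271 ligated ones, and the unnamed clusters 8 and 11 held 25 and 22 mock cells. The libraries were compared only in the 9 clusters where both had 50 cells or more. Summed markers fitted the names: 11 fibroblast markers summed to 533.2 and 352.5 in the mock and ligated cells of cluster 3, and 13 mural markers to 233.6 and 145.2 in cluster 6. Cell types outside a cluster still left their markers in it, at a median of 2.23% to 9.41% of the library mean over the compared clusters of the mock library and 7.37% to 22.4% in the ligated library. A level that is no higher than this share of the gene's own library mean is called the carry-over level below and is not read as expression by the cluster. Doublets were not called here, and whether cells of the libraries share barcodes cannot be seen in means.

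Annotated start regions are shown for an endothelial ligand, a mural and glial ligand and a fibroblast receptor. Where their RNA starts in these cells was not measured. Windows from the RefSeq promoters of build GRCm38.p6 were taken for 4 of the 7 genes, with 2 starts for Pdgfa. Each window covers 250 bases before and 50 bases after a transcription start. Whether the remaining genes have an entry is not reported here. The windows of Pdgfd, of the upstream start of Pdgfa and of Pdgfra follow, written 5′ to 3′ on the gene's strand, at chr9:6168236-6168535 (plus strand), chr5:138994895-138995194 (minus strand) and chr5:75152001-75152300 (plus strand). Capitals mark matches on either strand to 4 motifs. The TATA box, at which the basal transcription machinery binds, was searched as TATAAA. The box that the factor NF-Y binds was searched as CCAAT. The GC box, bound by factors such as SP1, was searched as GGGCGG. The core of the motif of ETS family factors was searched as GGAAG.
Pdgfd: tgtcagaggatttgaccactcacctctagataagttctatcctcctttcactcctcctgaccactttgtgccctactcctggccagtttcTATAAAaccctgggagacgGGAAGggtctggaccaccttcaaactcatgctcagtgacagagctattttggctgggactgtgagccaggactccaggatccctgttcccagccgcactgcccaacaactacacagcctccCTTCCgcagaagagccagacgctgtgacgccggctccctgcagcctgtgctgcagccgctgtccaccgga
Pdgfa: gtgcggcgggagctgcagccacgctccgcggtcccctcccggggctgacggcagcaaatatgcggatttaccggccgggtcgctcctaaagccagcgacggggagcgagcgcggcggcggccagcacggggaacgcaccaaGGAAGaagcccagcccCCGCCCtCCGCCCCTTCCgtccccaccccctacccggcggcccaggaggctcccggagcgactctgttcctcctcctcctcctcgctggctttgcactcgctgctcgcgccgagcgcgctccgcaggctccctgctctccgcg
Pdgfra: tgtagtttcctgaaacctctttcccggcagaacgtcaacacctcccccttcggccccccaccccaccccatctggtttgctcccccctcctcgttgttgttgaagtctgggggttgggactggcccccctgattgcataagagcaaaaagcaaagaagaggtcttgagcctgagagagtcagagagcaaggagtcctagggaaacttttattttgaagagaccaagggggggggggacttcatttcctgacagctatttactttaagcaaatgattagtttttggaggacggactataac
The Pdgfd window held 1 TATA box match, at -160 relative to the start, and 2 ETS core matches. The Pdgfa window was 73.3% guanine and cytosine and held 2 GC box and 2 ETS core matches, of which a GC box and an ETS core adjoin without overlapping. The Pdgfra window held 0 matches to any of the 4 motifs. Among 32851 promoter windows of the same length, 13.6% held the TATA box, 37.4% the NF-Y box, 35.7% the GC box and 71.4% the ETS core. These matches are a description of letters and say nothing about which factor acts there.

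Pdgfb, the ligand that endothelium uses to recruit mural cells, stood highest in the 2 endothelial-like clusters in both libraries. In cluster 0 it stood at 8.23 in the mock and 3.31 in the ligated library, and in the second endothelial-like cluster at 8.002 and 4.06. The mock value was 2.49-fold the ligated value in cluster 0 and 1.97-fold in cluster 4. The order of these neighbours was opposite in the 2 libraries, so neither can be placed first. The difference, log2((ligated + 0.1)/(mock + 0.1)), was -1.29 in cluster 0 and -0.96 in cluster 4. A gene counts here as past the size rule where its higher value is at least 0.5 and its difference is at least 1 in size. In cluster 0 that held for Pdgfb, 1 of the 2 PDGF genes that reached 0.5 there, and for 6.6% of all genes that reached 0.5. All genes, here and in every such share below, include genes seen in only 1 library. In total 684 genes stood above 0 only in the mock and 3150 only in the ligated library. Why they did was not tested, and it differs between the libraries together with ligation. Summed endothelial markers were 206.5 in the mock and 172.7 in the ligated cells of cluster 0, with 6 of 11 higher in the ligated library, and their part in the Pdgfb value was not tested.

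Immune cells also carried Pdgfb RNA. Macrophage-like cluster 5, whose cell type is a known source of PDGF-B in wounds, stood at 3.56 in the mock and 2.11 in the ligated library (difference -0.73). Natural killer-like cluster 1 stood at 0.757 and 0.712 (-0.08) and T cell-like cluster 2 at 0.545 and 0.489 (-0.13), each above carry-over, which was 0.121 and 0.117 for the former and 0.223 and 0.142 for the latter. The lymphoid values were thus nearly level between the libraries while both endothelial values were lower in the ligated one. None of these 3 immune clusters had a PDGF gene past the size rule, which held for 4.56% of all genes in cluster 1, 5.34% in cluster 2 and 8.48% in cluster 5. Schwann-like cluster 9 stood at 3.69 and 2.75, with 17 mock cells behind the first value. Erythroid-like cluster 10 stood at 3.50 and 2.73 (-0.35), in a cluster where endothelial markers summed to 93.2 and 82.0 and macrophage markers to 27.1 and 59.3. The median gene of cluster 10 was higher by 0.57 in the ligated library, and Pdgfb was not past the rule there, where 25.2% of all genes were.

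Fibroblast-like cells stood at the other end for Pdgfb, at 0.131 in the mock and 0.140 in the ligated library, below their carry-over levels of 0.211 and 0.172. The ductal-like values of 0.377 and 0.397 were also close to carry-over (0.428 and 0.356). Mural-like cells stood at 0.937 and 0.639, above carry-over levels of 0.404 and 0.335. Endothelial markers summed to 22.6 in the mock and 16.9 in the ligated cells of this cluster. In the mural-like cluster of the receptor subset described below they summed to 7.43 and 6.64, and Pdgfb stood at 0.333 and 0.373. The part of endothelial RNA in the mural Pdgfb value was not tested. Among the 12 clusters the fibroblast-like one, which holds the alpha receptor, was thus the lowest for this ligand in both libraries.

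Pdgfa, the ligand of the alpha receptor, had a different set of sources. It stood highest in Schwann-like cluster 9, at 5.68 in the mock and 6.25 in the ligated library, although the mock value rests on 17 cells and about 45 UMIs. Schwann cells wrap the nerves of the gland, and their 8 markers summed to 113.4 and 50.1 in this cluster. Fibroblast markers were present in this cluster as well, at a sum of 28.7 in the ligated and a higher one in the mock cells. Mural-like cluster 6 came next, at 3.40 in the mock and 1.91 in the ligated library (difference -0.80), on an estimated 358 and 397 UMIs. All other clusters stood below 0.72 in both libraries. Pdgfa was therefore confined, among levels above 1, to glial and mural cells in these 2 libraries.

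The mural difference for Pdgfa came with lower mural markers: 0 of 13 were higher in the ligated library, and their sum stood at 233.6 in the mock and 145.2 in the ligated cells. Platelet markers, summed over 5 genes, stood at 3.31 and 0.0227 in the same cluster. Platelets store PDGF. In the mural-like cluster of the receptor subset described below, platelet markers stood at 0.0344 and 0.0153 and the Pdgfa difference was -0.76. The part of mural makeup and of platelet RNA in the Pdgfa value was not tested. Of 3 PDGF genes that reached 0.5 in cluster 6, 0 were past the size rule, against 9.41% of all genes.

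Low levels of Pdgfa were seen in further clusters. The second endothelial-like cluster stood at 0.296 in the mock and 0.510 in the ligated library (0.63), and the macrophage-like cluster at 0.490 and 0.596 (0.24). Fibroblast-like cells stood at 0.173 and 0.269, above their carry-over levels of 0.00883 and 0.0415. In ductal-like cells, the epithelium of the gland's duct system, Pdgfa stood at 0.0979 in the mock and 0.718 in the ligated library (2.05), and it was the single PDGF gene to reach 0.5 there. These cells were shallow, with recovered totals of about 1082 and 1012 UMIs, so the 2 values rest on an estimated 2.13 and 20.2 UMIs. The size rule was met by 26.5% of all genes in this cluster, and the summed ductal markers stood at 373.6 and 957.8. How much of the Pdgfa difference goes with that change of makeup was not tested.

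Pdgfd, a ligand of the beta receptor, was endothelial in both libraries. The second endothelial-like cluster, which carries arterial and lymphatic markers beside the general ones, stood highest at 1.78 in the mock and 0.586 in the ligated library. Cluster 0 followed at 0.790 and 0.478. The mock value was 3.04-fold the ligated value in cluster 4 and 1.66-fold in cluster 0. The difference was -1.45 in cluster 4, where Pdgfd was the 1 of 3 PDGF genes past the size rule against 6.1% of all genes, and -0.62 in cluster 0. The summed markers of arterial endothelium stood at 23.8 and 24.7 in cluster 4, those of lymphatic endothelium at 9.54 and 10.8, and the general endothelial markers at 126.6 and 119.0. Single markers differed in both directions, with 3 of 7 arterial, 2 of 7 lymphatic and 2 of 11 general ones higher in the ligated library. The part of the cluster's makeup in the Pdgfd value was not tested.

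Elsewhere Pdgfd did not reach 0.5. Mural-like cells stood at 0.340 in the mock and 0.106 in the ligated library, on an estimated 35.8 and 22.1 UMIs. Ductal-like cells stood at 0.0386 and 0.338, on an estimated 0.84 and 9.52 UMIs. Fibroblast-like cells stood at 0.137 and 0.126, a difference of -0.07. Pdgfd was thus lower in the ligated library in both endothelial-like clusters and in the mural-like one, and level in the fibroblast-like one.

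Pdgfc, the latent ligand of the alpha receptor, was the one PDGF gene below 0.5 in every cluster of both libraries. Mural-like cells stood at 0.188 in the mock and 0.131 in the ligated library, on an estimated 19.8 and 27.2 UMIs. Markers of myoepithelial or basal epithelium, among them Krt14 at 0.622 and 2.46, summed to 2.05 and 4.20 in this cluster. That list shares Cnn1 with the mural one. In the mural-like cluster of the receptor subset described below the sum was 0.397 and 0.154. Pdgfc stood there at 0.231 and 0.0566, on an estimated 16.5 and 5.24 UMIs. The part of epithelial RNA in the mural Pdgfc value was not tested. Ductal-like cells stood at 0.0997 and 0.124, on an estimated 2.17 and 3.49 UMIs, and fibroblast-like cells at 0.0295 and 0.00357. No other cluster exceeded 0.016. The fibroblast-like values rest on an estimated 7.11 and 5.85 UMIs. Because Pdgfc stayed below the minimum of 0.5, the size rule could not count a difference for it, and none was tested.

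**Figure D1:**
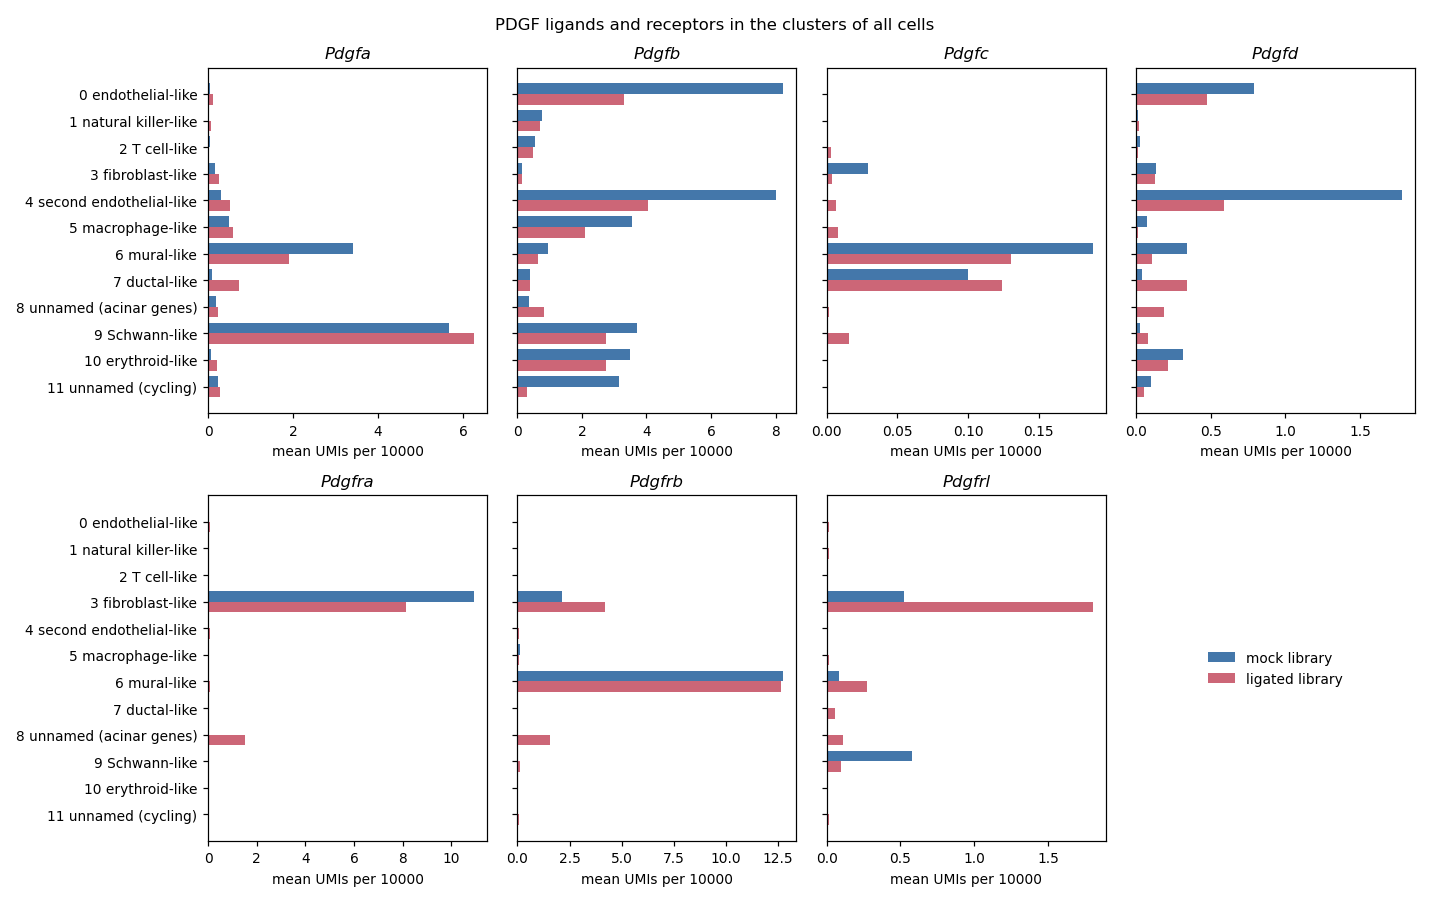
Level of each PDGF gene (mean UMIs per 10000, horizontal axis, scaled per gene) in each of the 12 clusters of all cells, as 1 bar for the mock and 1 for the ligated library, with no error because each condition is 1 library. Pdgfb is longest in the endothelial-like clusters (8.23 and 3.31 in cluster 0), Pdgfa in the Schwann-like and mural-like ones, Pdgfra in the fibroblast-like cluster alone among the compared ones, and Pdgfrb in the mural-like cluster.

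The alpha receptor gene Pdgfra stood at 10.9 in the mock and 8.14 in the ligated fibroblast-like cells, a difference of -0.42. In the other 8 compared clusters it stood between 0 and 0.0453 in the mock library and between 0.0269 and 0.0896 in the ligated library. In the ligated library each of these 8 values lay below its carry-over level. In the mock library both endothelial-like values lay above it, at 0.0341 against 0.0190 in cluster 0 (about 67.4 UMIs) and 0.0453 against 0.0156 in cluster 4 (about 6.63 UMIs). Summed fibroblast markers were also lower in the ligated cells (533.2 and 352.5), with 5 of 11 higher, and their part in the Pdgfra value was not tested. Mural-like cells, which stood at 0.00596 and 0.0896 for Pdgfra, had carry-over levels of 0.0381 and 0.189, so the mural source of Pdgfa showed no alpha receptor RNA above carry-over.

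The beta receptor gene Pdgfrb was carried by 2 stromal populations. Mural-like cells stood at 12.7 in the mock and 12.6 in the ligated library (-0.01), although their other markers were lower in the latter. Fibroblast-like cells stood at 2.14 and 4.18 (0.94), so the ligated value was 1.96-fold the mock value and the difference stayed just short of 1. Mural-like cells therefore stood above fibroblast-like cells in both libraries, by less in the ligated one. In the endothelial, lymphoid and ductal clusters both values were at or below 0.0818, and in the macrophage-like cluster they were 0.113 and 0.0678. The ligated values of all these clusters lay below carry-over, while the mock macrophage value exceeded its carry-over level of 0.0558 on about 9.72 UMIs.

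Pdgfrl encodes a secreted protein that resembles the extracellular part of the beta receptor and has no kinase domain. It stood at 0.521 in the mock and 1.80 in the ligated fibroblast-like cells, on an estimated 126 and 2950 UMIs. The difference was 1.61, a 3.46-fold higher ligated value, and Pdgfrl was the 1 of 3 PDGF genes past the size rule in this cluster, against 9.78% of all genes. Mural-like cells stood at 0.0822 and 0.273, on an estimated 8.64 and 56.6 UMIs, and the Schwann-like cells at 0.579 (17 mock cells) and 0.0940. The 3 receptor-family genes thus differed in both directions in fibroblast-like cluster 3, with Pdgfra lower and Pdgfrb and Pdgfrl higher in the ligated library.

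Over the 9 compared clusters, PDGF genes reached 0.5 in 17 of 63 pairs of a gene and a cluster, and 4 of the 17 were past the size rule. These were Pdgfb in cluster 0, Pdgfd in cluster 4, Pdgfrl in cluster 3 and Pdgfa in cluster 7, 2 lower and 2 higher in the ligated library. The share past the rule among all genes ranged from 4.56% in cluster 1 to 26.5% in cluster 7.

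**Figure D2:**
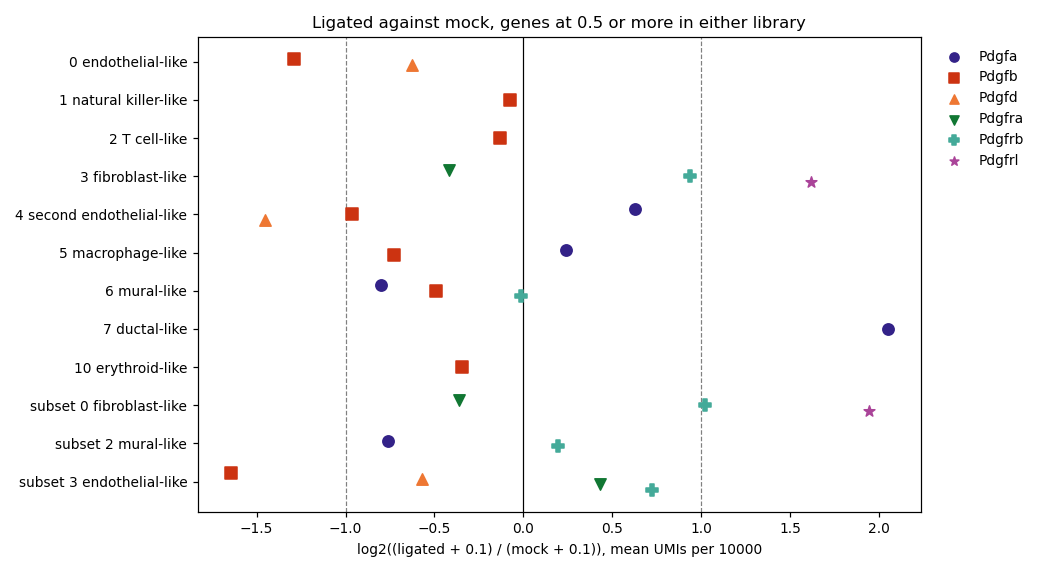
Difference between the libraries, log2((ligated + 0.1)/(mock + 0.1)), on the horizontal axis for every PDGF gene that reached 0.5 in either library, by compared cluster, with dashed lines at -1 and 1. Pdgfb and Pdgfd lie left of 0 in both endothelial-like clusters, and Pdgfrl lies right of 1 in the fibroblast-like clusters.

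How much of each gene's RNA a cluster held depends on its level and on its number of cells. Level times cells, summed over clusters, was used to give each cluster's share of a gene's expression per library. Of Pdgfb, cluster 0 held 85.2% in the mock and 53.9% in the ligated library, and both endothelial-like clusters together held 93.2% and 65.8%. The natural killer-like, T cell-like and macrophage-like clusters together held 3.82% and 24.9%. Their levels as deposited were not higher in the ligated library (after subtraction of the carry-over the T cell-like difference was 0.08), but their shares of cells were. These were 16.2% and 29.4% for the natural killer-like cluster, 3.69% and 12.2% for the T cell-like and 1.83% and 5.96% for the macrophage-like one. Cluster 0 was 56.3% of the mock and 25.8% of the ligated cells, at levels of 8.23 and 3.31, and this enters the immune shares as well.

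For Pdgfa the mural-like cluster held 57.3% in the mock and 18.3% in the ligated library, and the Schwann-like cluster 10.1% and 38.7%. The level in Schwann-like cells differed by a factor of 1.10 between the libraries, while their number went from 17 of 4199 to 271 of 11406. The mural-like cluster had a similar share of cells in both, 3.83% and 3.68%, and a lower level in the ligated one. The leading source of Pdgfa RNA thus differed between these 2 libraries, and glial cells in the gland and glial cells released by dissociation cannot be told apart.

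Of Pdgfd the endothelial-like clusters held 94.3% in the mock and 78.5% in the ligated library. Of Pdgfc the mural-like cluster, which also held the epithelial markers given above, held 52.9% and 47.6% and the ductal-like cluster 35.0% and 29.9%. Of Pdgfra the fibroblast-like cluster held 95.4% and 91.5%, and of Pdgfrl 79.1% and 86.9%. Of Pdgfrb the mural-like cluster held 82.3% and 48.2% and the fibroblast-like cluster 16.1% and 43.7%. Fibroblast-like cells were 4.48% of the mock and 10.1% of the ligated cells, and their Pdgfrb level was higher in the latter as well.

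**Figure D3:**
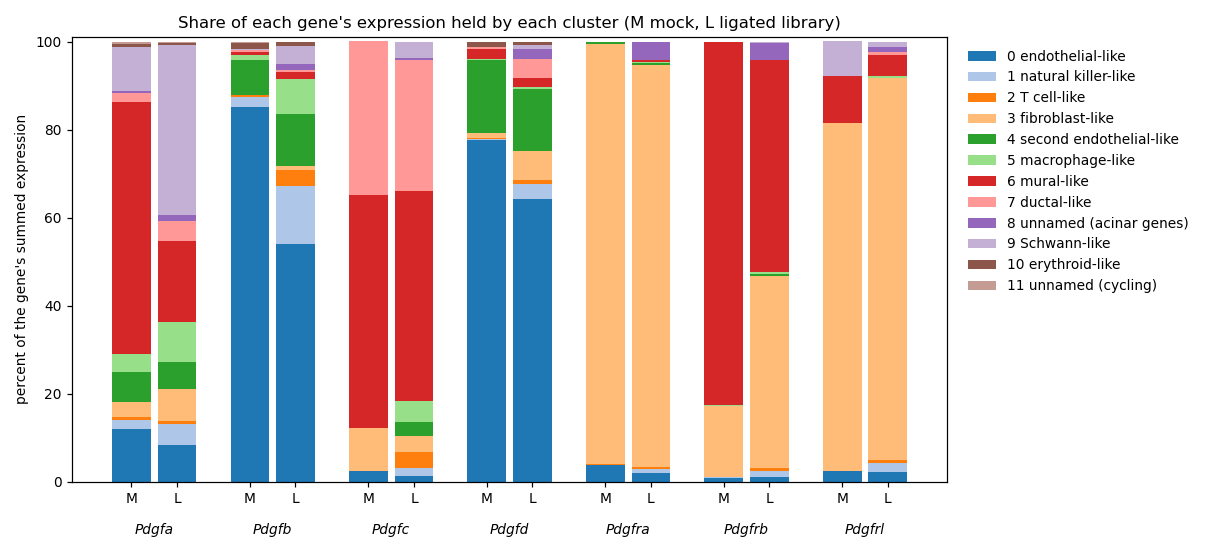
Share of each PDGF gene's summed expression (percent, vertical axis) held by each of the 12 clusters, in the mock (M) and the ligated (L) library. The endothelial-like block of Pdgfb shrinks from 85.2% to 53.9%, the Schwann-like block of Pdgfa grows from 10.1% to 38.7%, and the fibroblast-like block of Pdgfrb grows from 16.1% to 43.7%.

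The mix of cells therefore bears on any level read over a whole library, where fewer cells of a type and less RNA per cell cannot be told apart. The library mean of Pdgfb stood at 5.44 in the mock and 1.59 in the ligated library (-1.71), and with the mock mix of clusters applied to both the ligated value was 2.38 (-1.16). Pdgfd went from 0.573 to 0.192 (-1.21), or to 0.337 with the mock mix (-0.63). The sign of both was the same under either weighting. Pdgfra stood at 0.512 and 0.896 (0.70), but at 0.427 in the ligated library with the mock mix (-0.22), so its direction over the whole library depended on the weighting. Pdgfrb stood at 0.594 and 0.965 (0.62), or 0.720 with the mock mix (0.24). Pdgfrl stood at 0.0295 and 0.209 (1.25), or 0.108 (0.68), and Pdgfa at 0.228 and 0.384 (0.56), or 0.271 (0.18).

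The authors also clustered a subset of 401 mock and 1935 ligated cells by itself, in 5 clusters, which their tables name for Pdgfra, Pdgfrb and Gli1. Virtually all receptor RNA lay inside it: 99.95% of Pdgfra in both libraries, and 99.98% and 99.9% of Pdgfrb. Cells entered it through these genes, so receptor levels inside it are partly set by the selection, and the ligands are the freer reading. The subset held 56.75% of Pdgfa RNA in the mock and 25.43% in the ligated library, and 62.55% and 27.34% of Pdgfc. It held only 3.15% and 6.44% of Pdgfb and 4.98% and 11.8% of Pdgfd. The subset itself was 9.55% of the mock and 16.96% of the ligated cells. Its part of the Pdgfa and Pdgfc RNA was thus above its share of cells, far above in the mock library and less so in the ligated one. Its part of the Pdgfb and Pdgfd RNA was below that share in both libraries.

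Within the subset, mural-like cluster 2 (128 mock and 274 ligated cells) stood at 3.72 and 2.15 for Pdgfa (-0.76) and at 15.2 and 17.4 for Pdgfrb (0.20). Pdgfc stood at 0.231 and 0.0566 there and Pdgfd at 0.334 and 0.0756, both below 0.5. Mural markers summed to 246.0 and 162.7, with 0 of 13 higher in the ligated library. Of the 2 PDGF genes that reached 0.5, 0 passed the size rule, against 8.51% of all genes.

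Fibroblast-like subset cluster 0 (167 and 949 cells) gave the receptor pattern of fibroblast-like cluster 3 again, which shares most of its cells and so is no second observation. Pdgfra stood at 11.5 and 8.90 (-0.36), Pdgfrb at 2.23 and 4.63 (1.02) and Pdgfrl at 0.436 and 1.96 (1.94). Pdgfrb and Pdgfrl, 2 of the 3 PDGF genes that reached 0.5, were past the size rule, against 10.1% of all genes. Pdgfb stood at 0.0586 and 0.0399 in these cells, below carry-over levels of 0.129 and 0.0853.

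Endothelial-like subset cluster 3 (82 and 260 cells) stood at 8.01 and 2.49 for Pdgfb, a difference of -1.65 and a 3.21-fold higher mock value. Pdgfd stood at 0.664 and 0.414 (-0.57), Pdgfra at 1.96 and 2.67 (0.43) and Pdgfrb at 1.58 and 2.68 (0.72). Pdgfb was the 1 of 4 PDGF genes past the rule, against 10.5% of all genes. The makeup of this cluster differed between the libraries: endothelial markers summed to 187.4 and 122.3 and fibroblast markers to 31.1 and 85.0, with 10 of 11 of the latter higher in the ligated library. Cells with both endothelial and stromal RNA in it may be single cells or doublets, which means cannot tell apart.

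**Figure D4:**
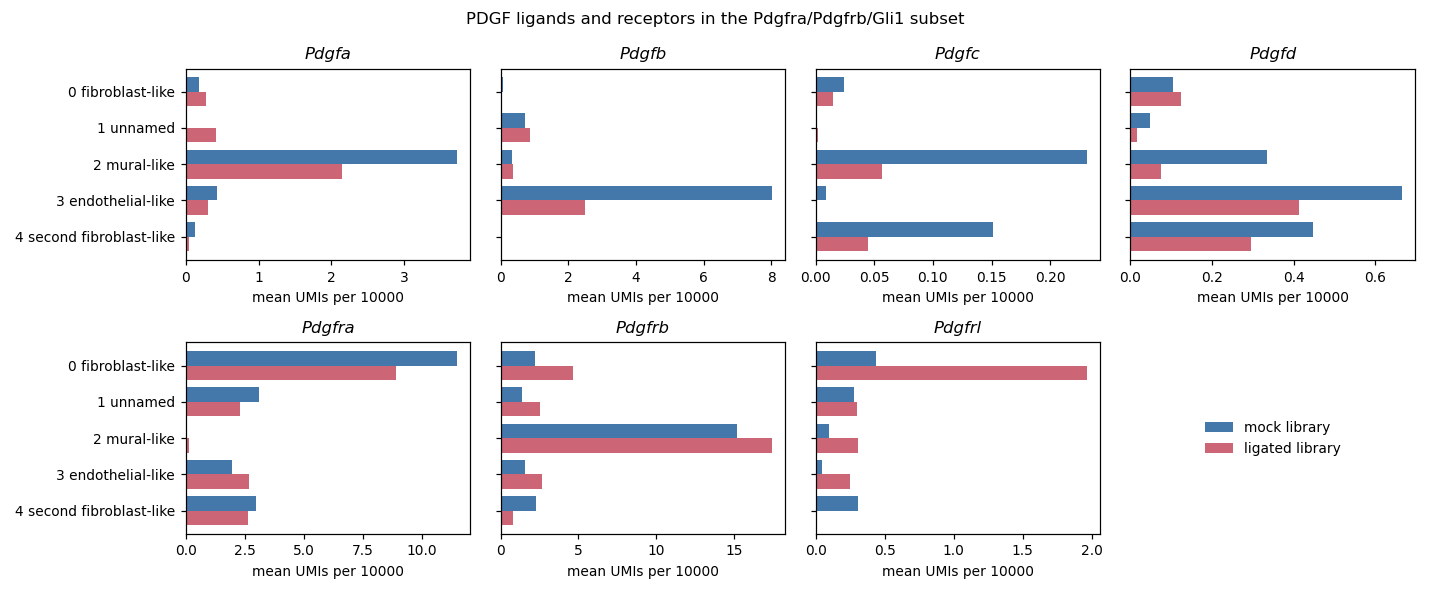
Level of each PDGF gene (mean UMIs per 10000, horizontal axis, scaled per gene) in the 5 clusters of the Pdgfra/Pdgfrb/Gli1 subset, as 1 bar for the mock and 1 for the ligated library. Pdgfa and Pdgfrb are longest in the mural-like cluster, Pdgfb in the endothelial-like cluster (8.01 and 2.49) and Pdgfrl in the ligated fibroblast-like cluster (1.96).

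The genes that prepare and bind the ligands were followed across the same clusters. Of 12 listed genes 11 had values, and they reached 0.5 in 41 pairs of a gene and a compared cluster, 3 past the size rule with a higher and 1 with a lower ligated value. Over the same 9 clusters 11.1% of all pairs of a gene and a cluster were past the rule, and 2 of the 4 lay in the ductal-like cluster, where 26.5% were. Plat, tissue plasminogen activator and the activator of PDGF-C, stood at 1.48 in the mock and 2.28 in the ligated fibroblast-like cells (0.59). Plau, urokinase, an activator of PDGF-D, stood at 1.60 and 0.979 there (-0.66). Furin, a convertase that processes PDGF-A and PDGF-B, had a mock value of 0.680 and a ligated value of 0.546 in cluster 0, and values of 1.20 and 0.601 in the second endothelial-like cluster (-0.89). The 3 processing enzymes were thus short of the size rule in these clusters.

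Binding partners of the ligands in the matrix and at the cell surface differed in both directions. Hspg2, the heparan sulphate proteoglycan perlecan, stood at 4.95 and 2.16 in the second endothelial-like cluster (-1.16) and at 9.58 and 5.10 in cluster 0 (-0.90). Sparc, a matrix protein that binds PDGF-B, stood at 35.0 and 64.7 in fibroblast-like cells (0.88) and at 50.8 and 25.8 in mural-like cells (-0.98). Sparc was also past the rule in natural killer-like cells (0.360 and 0.996) and ductal-like cells (0.681 and 2.88), but all 4 values lay below carry-over, which was 0.465 and 1.34 in the former and 1.64 and 4.08 in the latter, so they are not read as expression there. Nrp1, a co-receptor, was past the rule in ductal-like cells at 0.144 and 1.20, beside carry-over levels of 0.881 and 0.920. In endothelial-like subset cluster 3, Nrp1 stood at 17.9 and 8.48 (-1.07), and Plat (0.239 and 0.869) and the endocytic receptor Lrp1 (0.892 and 2.54) were higher in the ligated library. Fibroblast markers were also higher in that subset cluster, as given above, and their part in these values was not tested.

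Signalling genes below the receptors were counted against the same 11.1% of all pairs. Of 25 adaptors and enzymes that bind the receptors, 0 were past the rule with a higher and 1 (Pik3ca, macrophage-like) with a lower ligated value over 93 pairs. In the subset Ptpn2, a phosphatase gene of the same list, was past the rule in mural-like cells (0.197 and 0.516), beside 9.69% of all pairs over the 3 subset clusters. Of 21 downstream kinases and transcription factors, Akt2 was past the rule with a lower ligated value in ductal-like cells. In fibroblast-like cells, which carry both receptors, the median difference was -0.35 for the adaptors and -0.21 for the downstream genes, beside -0.06 over all genes. Over the 46 pathway genes that reached 0.5 in that cluster, 1 was past the rule, beside 9.78% of all genes.

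Of 17 early genes that PDGF induces in cultured fibroblasts, 11 pairs of 62 were past the rule with a higher and 1 with a lower ligated value, beside 11.1% of all pairs in either direction. Fibroblast-like cells contributed 0 of these. Mural-like cells contributed 3: Fosb at 0.661 and 1.49, Jun at 3.01 and 6.13 and Junb at 1.63 and 3.70, which encode AP-1 transcription factors. The share past the rule over all genes was 9.41% in that cluster. Erythroid-like cells contributed 5 and ductal-like cells 2, in clusters where 25.2% and 26.5% of all genes were past the rule, and the median gene of the former was higher by 0.57. These genes also respond to tissue dissociation, and the part of that in the values was not tested. Among 7 other genes of the same receptor class and its ligands, Il34, a ligand of the macrophage receptor CSF1R, stood at 0.349 in the mock and 2.19 in the ligated fibroblast-like cells (2.36).

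The genes whose levels were most alike were found by Pearson's r over the 24 columns of 12 clusters in 2 libraries, among 4607 genes. The columns share 2 libraries and their carry-over, so r is a description. For Pdgfra these were Cpxm1, Tspan11, Mmp3, Medag and Fbln1 (r from 0.988 to 0.981), and for Pdgfrb Arhgap6, Pcdh18, Mrvi1, Ndufa4l2 and Foxs1 (0.970 to 0.964). For Pdgfrl they were Ctsk, Col6a3, Fbn2, Lama2 and Islr (0.939 to 0.907). For the ligands they were Art3, Cdh2, Hspb2, Adgrl3 and Edil3 for Pdgfa (0.889 to 0.864) and Plekho1, Itga6, Sipa1l2, Pcdh17 and Hlx for Pdgfb (0.868 to 0.839). For Pdgfd they were Fas, Pik3r3, Heg1, Tanc1 and Slc26a10 (0.921 to 0.9). Among the PDGF genes themselves, r was 0.54 between Pdgfb and Pdgfd, 0.74 between Pdgfra and Pdgfrl, 0.63 between Pdgfrb and Pdgfrl, and -0.46 between Pdgfb and Pdgfra.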

How the data were processed

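The authors deposited 4 tables of cluster means: all cells in 12 clusters and the receptor subset in 5, each for both libraries together and split by library, with 51 value columns in all. The submitters' processing notes name Cell Ranger 6.0.1, Seurat and build mm10, and the chemistry, cell filters and doublet treatment are not given in the sources used here. The deposited values are mean UMIs per 10000 (a unit that is neither counts nor CPM), read from the values: every column sums to 10000. Where the split tables held calendar dates, 21 gene names were restored from the gene order, none of them a PDGF gene. In both libraries cell numbers came from the weight that turns split means into joint means (tolerance 2e-09), and UMI totals from genes seen in 1 cell. Python 3.11.15, numpy 2.4.6 and pandas 2.3.3 were used. The recovery of cell numbers and the size rule were checked on simulated data for some clusters, and the UMI totals were not. Estimated UMIs are mean times cells times the median recovered total. A carry-over level is the library mean times the median share at which other cell types' markers (library mean at least 0.05) stood in the cluster. The pseudocount was 0.1. The members, the marker and pathway lists and the thresholds were chosen with earlier results of these data known. Genes are named where they are PDGF genes, among the 5 most alike per member, or listed pathway genes past the size rule or among the ligand-processing and binding genes. The genes most alike to Pdgfc and part of the downstream gene results are not reported here. Alternatives changed the pseudocount, the minimum value, the size, the scaling, the carry-over and the cluster weights. The GENCODE M21 annotation (GRCm38) shows exons of the same strand overlapping a PDGF gene only for Pdgfra (Mir7025), and exons of the opposite strand for Pdgfa, Pdgfc and Pdgfra.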

Additional observations from a re-analysis of the deposited data

Results flagged for a closer look

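The difference of Pdgfa pointed in opposite directions in clusters of the same 2 libraries. In the second endothelial-like cluster it was 0.63 (0.296 in the mock and 0.510 in the ligated library). For mural-like cells it was -0.80 (3.40 and 1.91). In the ductal-like cluster it was 2.05 (0.0979 and 0.718), again against -0.80 in mural-like cells. With 1 library per condition, neither difference between clusters was tested. The ductal-like value rests on an estimated 2.13 mock UMIs.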

How the results depend on the processing

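With 1 library per condition, none of these values has a replicate error, and low genes in clusters with few or shallow cells are limited by counting. No paired analysis was possible because each condition has 1 library and the labels give no replicate numbers. Of 208 values, from 26 differences of PDGF genes under 8 settings, 194 stayed on their side of the size rule and 14 fell short of it. Part of this was fixed in advance. The 26 were picked for reaching 0.5, so dropping the minimum could change none of them. A higher minimum or size could only take differences out of the rule. None of these changes of threshold could alter a sign. The sign changed in 2, both small: Pdgfb in T cell-like cells (-0.13) was 0.08 after subtraction of the carry-over, and Pdgfrb in mural-like cells (-0.01) was 0.06 when centred on the median gene. A pseudocount of 1 gave 0.88 for Pdgfrl in fibroblast-like cells, -0.81 for Pdgfd in the second endothelial-like cluster, 0.65 for Pdgfa in ductal-like cells and 0.80 for Pdgfrb in fibroblast-like subset cells. PDGF genes past the rule, 4 over all-cell clusters, numbered 1 with a pseudocount of 1, 7 with no minimum, 1 with a minimum of 2 and 1 with a size of 2, and in the subset, with 3, they numbered 8 with no minimum and 0 with a size of 2. All genes past the rule, summed over clusters, numbered 3418 and under the same settings in turn 821, 8741, 828 and 1242, and in the subset 1154 and then 336, 2602, 339 and 481. At a minimum of 2 the subset had 140 higher and 199 lower genes, against 609 and 545. With columns rescaled without secretory, haemoglobin, mitochondrial and one-library genes, all genes past the rule numbered 2678, and 897 in the subset. Subtraction of the carry-over also turned the balance, to 514 higher and 617 lower in the subset and to 1256 and 1736 over all cells, against 2129 and 1289. Pathway genes past the rule (20, and 8 in the subset) numbered 7 and 1 with a pseudocount of 1 and 11 and 4 with a minimum of 2. Over both libraries the leading cluster's share was 33.6% for Pdgfa (Schwann-like), 71.4% for Pdgfb and 71.3% for Pdgfd (cluster 0), 92.2% for Pdgfra, 54.5% for Pdgfrb and 86.5% for Pdgfrl. With equal weight per cluster these were 56.0%, 23.6%, 22.8%, 82.9%, 68.7% and 75.2%, with cluster 4 then leading Pdgfd at 34.8%. After subtraction of the carry-over they were 37.0%, 74.5%, 74.7%, 98.3%, 58.1% and 94.0%. In the mock library alone the same clusters held 10.1%, 85.2%, 77.6%, 95.4%, 82.3% and 79.1%, with the mural-like cluster then leading Pdgfa at 57.3%, and in the ligated library alone 38.7%, 53.9%, 64.3%, 91.5% and 48.2% for the first 5. The library mean difference of Pdgfb was -0.81 with equal weights, that of Pdgfd -0.63 with the mock mix and -0.50 with equal weights, and that of Pdgfra -0.22 and -0.12, against 0.70 with its own mix. Only the weights of the clusters differ between these last values.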

Other observations

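The clusters with fewer than 50 mock cells also held PDGF RNA. In cluster 11, led by cycling and neutrophil genes, Pdgfb stood at 3.16 in 22 mock cells and at 0.285 in 59 ligated cells, and endothelial markers summed to 71.4 and 10.2 in the same cells. In cluster 8, led by acinar genes, Pdgfra and Pdgfrb were listed at 0 in 25 mock cells and stood at 1.52 and 1.58 in 264 ligated cells, where fibroblast markers summed to 57.0 against 0.856 in the mock cells. Pdgfb stood at 0.359 and 0.838 there, with a ligated carry-over level of 1.66. The second fibroblast-like subset cluster held 10 mock and 17 ligated cells. Pdgfra stood at 2.98 and 2.63 there, Pdgfrb at 2.295 and 0.772 and Pdgfrl at 0.309 and 0. Subset cluster 1, led by lymphocyte genes, held 14 and 435 cells. Pdgfra stood at 3.10 and 2.30 there and Pdgfrb at 1.375 and 2.55, with ligated carry-over levels of 0.917 and 0.987. None of these values was compared between the libraries.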
